A study of Rattus norvegicus with 12 samples.

Results

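Genes of mitosis, the spindle and the kinetochore were followed across newborn and adult rat aorta and semilunar valve. The set was a list of 49 genes, taken with every probe set whose only annotated symbol was a listed gene. Of these, 44 genes were measured, by 60 probe sets, among 14217 genes named on the array. Each gene was summarised by its brightest probe set, the one with the highest mean log2 signal over the 12 arrays, and 12 genes had more than 1 probe set. No probe set with a single symbol was found for Ndc80, Kif4a, Tpx2, Anln or Ncapg, and the probe set for Anln was shared with Anlnl1.

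Total RNA from Wistar rats was hybridised to 12 Affymetrix arrays, 3 in each of 4 groups by title. The 2 neonatal groups, aorta and valve, were collected within 24 h of birth, and the 2 adult groups came from rats labelled male, with no age given. Aorta means the proximal vessel, and valve means aortic and pulmonary semilunar valves combined. No agent or genetic change is named for any group. Separate animals are not stated for the arrays of a group, and each p-value thus measures the spread between these samples only.

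The labels conflicted in places. The description and tissue entries of the 3 arrays titled adult aorta named neonatal valve, and those of the 3 arrays titled neonatal valve named adult aorta. Groups follow the titles, which match the source names. Igf2, a fetal growth factor gene, gave 6189 to 8898 on the arrays with a neonatal valve title and 339 to 879 on those with an adult aorta title. Xist, the RNA of the inactive X chromosome in female cells, was at 5.08 to 297 in aorta and 10998 to 18362 in valve, including the 3 adult valve arrays labelled male. The Y-linked gene Eif2s3y was at 1379 to 2557 in aorta and 1.39 to 134 in valve. In comparisons between tissues, sex and tissue therefore cannot be told apart.

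Signals were on a linear scale with 1 scale factor per array, and the median over all probe sets was 183 to 202 in aorta and 133 to 170 in valve. RNA quality moved with tissue. The 3′ to 5′ signal ratio of beta-actin, which rises when RNA is short, was 1.40 to 2.59 on aorta, 7.24 to 8.84 on neonatal valve and 10.65 to 13.99 on adult valve arrays. Control RNAs added by the laboratory had signals from 137 upwards on 10 arrays and only 5.82 to 54.6 on neonatal aorta 2 and 3. The highest of these, 54.6, serves below as a working level for a probe set with no target RNA, called the level of absent RNA. It comes from 4 control probe sets on neonatal aorta 2 and 3, and other probe sets may read higher without target. Eif2s3y read up to 134 on valve arrays with high Xist, and Xist up to 297 on aorta arrays with high Eif2s3y. Bounds and counts given against 54.6 hold for that level only. The 8 smooth muscle markers were all above this level on every aorta array, with sums of 27490 to 126100, and the 9 endothelial markers measured were above it on all 12 arrays. The smooth muscle sum of adult aorta 1, 30650, was far below those of adult aorta 2 and 3, 94100 and 126100. Precision is limited by the number of arrays.

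Cells enter mitosis when cyclin A and cyclin B activate the kinase CDK1. The spindle then attaches to the chromosomes at kinetochores, the spindle checkpoint holds back anaphase until attachment is complete, and motor and midzone proteins divide the cell. Most of these genes are transcribed in G2 and M phase and are kept silent in resting cells by the DREAM complex, whose MuvB core binds a promoter element with the letters TTTGAA, the cell cycle homology region, often near CCAAT boxes bound by NF-Y. In the newborn the walls of the great arteries and the valve cushions are still growing, whereas most cells of the adult vessel wall and valve are at rest.

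Promoters are shown first because they hold the motifs counted below, which most but not all members had. RefSeq promoter entries of the rat build GRCr8, from 250 bases before to 50 bases after the annotated start, were found for 43 of the 49 genes (none for Ccna2, Pbk, Ube2c, Aurkb, Tpx2 and Racgap1), and 1 start per gene was used. In the lines below each sequence runs 5′ to 3′ on the gene's strand and ends at the base before the start. Capitals mark TTTGAA and CCAAT, each searched on both strands, so that TTCAAA and ATTGG are the same motifs on the other strand. The 8 genes were chosen for different roles and for both kinds of promoter: Cdk1 and its cyclin partners Ccnb2 and Ccnb1, the anaphase activator Cdc20, the passenger subunit Cdca8, the kinetochore gene Spc25, the midzone kinesin gene Kif23 and the topoisomerase gene Top2a. Their positions are chr20:19265073-19265292 (plus strand) for Cdk1, chr8:79981659-79981882 (minus strand) for Ccnb2, chr2:33655226-33655317 (minus strand) for Ccnb1, chr5:137255800-137255895 (minus strand) for Cdc20, chr5:142483200-142483401 (minus strand) for Cdca8, chr3:74396719-74396832 (minus strand) for Spc25, chr8:71320585-71320682 (minus strand) for Kif23 and chr10:84473094-84473342 (minus strand) for Top2a.
Cdk1: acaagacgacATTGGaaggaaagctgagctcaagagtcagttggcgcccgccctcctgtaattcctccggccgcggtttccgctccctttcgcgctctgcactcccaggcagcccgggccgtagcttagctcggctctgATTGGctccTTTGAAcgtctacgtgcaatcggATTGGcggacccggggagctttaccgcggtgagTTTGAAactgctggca
Ccnb2: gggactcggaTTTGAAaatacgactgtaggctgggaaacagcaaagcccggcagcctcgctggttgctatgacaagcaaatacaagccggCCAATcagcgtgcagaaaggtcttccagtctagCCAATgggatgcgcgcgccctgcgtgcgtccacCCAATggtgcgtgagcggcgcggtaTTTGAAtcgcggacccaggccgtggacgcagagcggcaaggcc
Ccnb1: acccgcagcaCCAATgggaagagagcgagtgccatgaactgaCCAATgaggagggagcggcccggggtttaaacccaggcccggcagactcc
Cdc20: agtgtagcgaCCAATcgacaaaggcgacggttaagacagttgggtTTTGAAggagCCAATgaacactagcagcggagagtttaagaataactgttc
Cdca8: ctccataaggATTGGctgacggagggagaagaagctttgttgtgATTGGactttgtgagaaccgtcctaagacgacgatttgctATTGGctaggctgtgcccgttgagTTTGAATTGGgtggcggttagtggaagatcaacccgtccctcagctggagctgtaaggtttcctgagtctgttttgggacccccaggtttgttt
Spc25: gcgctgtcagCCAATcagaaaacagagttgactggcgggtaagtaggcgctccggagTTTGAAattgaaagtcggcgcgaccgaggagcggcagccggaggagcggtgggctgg
Kif23: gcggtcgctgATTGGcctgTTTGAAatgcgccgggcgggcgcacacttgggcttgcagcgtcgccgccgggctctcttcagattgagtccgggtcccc
Top2a: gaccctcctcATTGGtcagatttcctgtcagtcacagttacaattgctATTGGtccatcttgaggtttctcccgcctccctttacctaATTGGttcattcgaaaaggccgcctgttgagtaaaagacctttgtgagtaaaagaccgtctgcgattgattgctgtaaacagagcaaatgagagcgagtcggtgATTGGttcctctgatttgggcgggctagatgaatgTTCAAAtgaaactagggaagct
Cdk1 and Ccnb2 held 2 copies of TTTGAA and 3 of CCAAT in the whole 300-base window. Cdc20, Cdca8, Spc25, Kif23 and Top2a held 1 copy of TTTGAA with 1 to 4 of CCAAT, and in Cdca8 the 2 motifs overlapped. Ccnb1 held 2 copies of CCAAT and no TTTGAA in this window.

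TTTGAA was found in the promoters of 31 of the 43 members (72.1%), against 12.3% of 11733 genes named on the array and 18.1% of all 27457 genes in the table. CCAAT was also found in 31 members (72.1%), against 37.3% of array genes and 37.7% of all genes, and 24 members (55.8%) held at least 2 copies, against 12.5% of array genes. Both motifs stood together in 26 members (60.5%), against 5.02% of array genes. The promoters of DNA replication genes held CCAAT in 23 of 37 (62.2%) and TTTGAA in 3 of 37 (8.11%). Neither motif was found for Aurka, Melk, Bub1, Hjurp, Kif18b, Kif2c and Ncaph, 7 members (16.3%), against 55.4% of array genes. A match is a run of letters, not a binding site.

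On neonatal arrays every measured member was above the level of absent RNA. The median of the 44 log2 signals was 9.73, 9.75 and 10.02 on neonatal aorta arrays 1 to 3 and 10.03, 9.84 and 10.12 on neonatal valve arrays 1 to 3. It was 8.40, 6.61 and 6.72 on adult aorta arrays and 6.0, 6.71 and 7.86 on adult valve arrays. All 6 adult medians were below all 6 neonatal ones. The median SD of log2 signal within a group was 0.27 and 0.24 in neonatal aorta and valve, and 1.17 and 1.05 in adult aorta and valve. In bulk tissue, fewer dividing cells and less RNA per cell cannot be told apart.

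**Figure D1:**
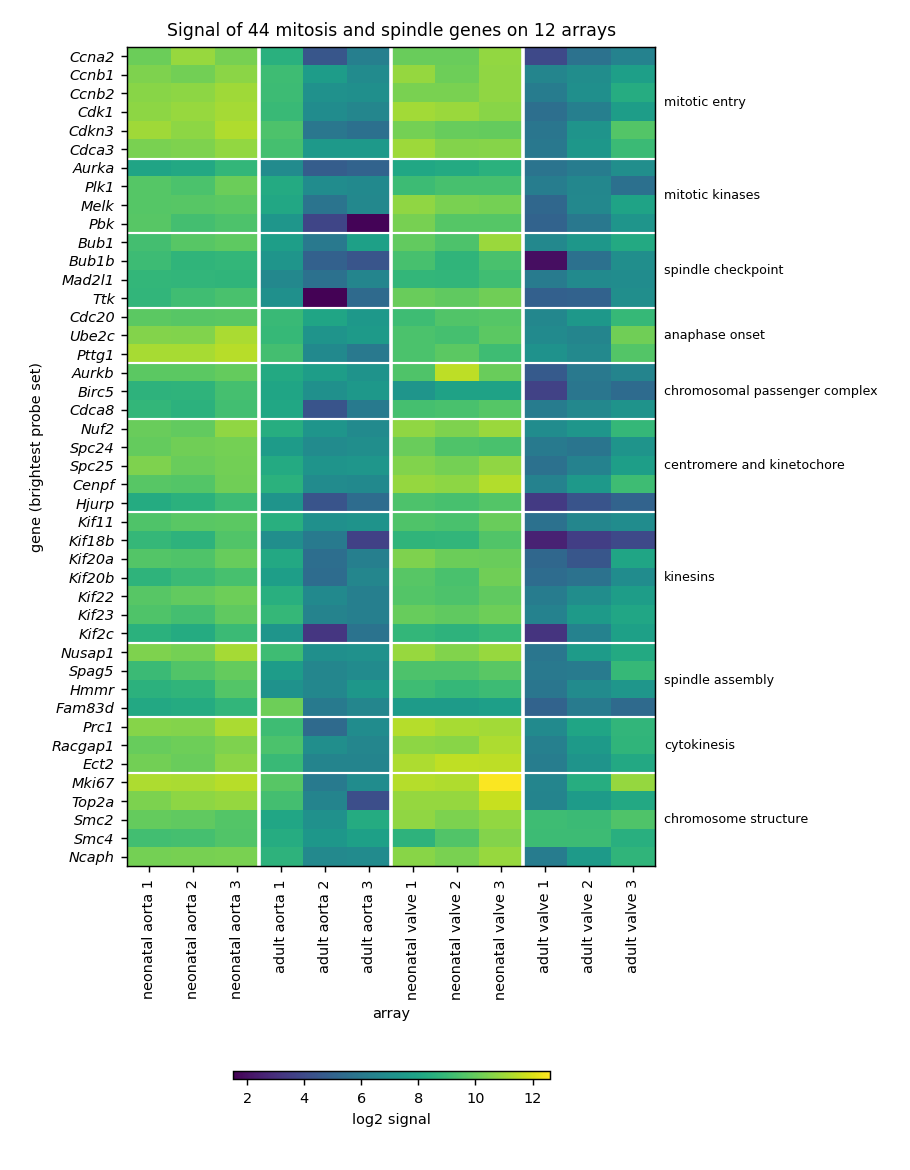
Log2 signal of the 44 measured genes (rows, brightest probe set, grouped by role) on the 12 arrays (columns, in 4 groups). Most genes are brighter on the neonatal than on the adult arrays of the same tissue, and the adult arrays are least dark on adult aorta 1 and adult valve 3.

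In the aorta, all 44 genes had a lower mean in the adult, and 31 of them were called lower by limma at an adjusted p under 0.05 (Benjamini-Hochberg over 31042 probe sets, two-sided). None was called higher. Over all probe sets 2.80% were called lower and 1.19% higher. The median difference of the set was −2.79 on the log2 scale, against 0.06 over all probe sets, and 43 genes were at least 2-fold lower. For 43 genes the 3 adult arrays lay below the 3 neonatal arrays without overlap, as 14.1% of all probe sets did. The exception was Fam83d.

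In the valve, all 44 genes again had a lower mean in the adult. Of these, 34 were called lower and none higher, where 2.57% of all probe sets were called lower and 1.98% higher. The median difference was −3.25, against 0.01 over all probe sets. For 41 genes the adult arrays lay below the neonatal ones without overlap, as 13.9% of all probe sets did, and the exceptions were Ube2c, Pttg1 and Smc4. Calls were shared by both tissues for 27 genes, made for the aorta for 4 (Cdkn3, Aurka, Pbk and Pttg1), for the valve for 7 (Cdca3, Bub1b, Birc5, Cenpf, Kif20a, Kif23 and Racgap1), and for neither tissue for 6 (Cdc20, Ube2c, Kif2c, Fam83d, Mki67 and Smc4). The difference between the tissues' age differences is tested further on. Adult means were at or below the level of absent RNA for 7 genes in the aorta (Aurka, Pbk, Bub1b, Ttk, Hjurp, Kif18b and Kif2c) and 8 in the valve (Ccna2, Bub1b, Ttk, Aurkb, Birc5, Hjurp, Kif18b and Fam83d). For these genes the fitted differences are not exact and give no rank, and where a bound is given, each lower signal was raised to that level. Other members had single adult arrays at or below it, and their fitted falls are not exact either. With such arrays raised, Top2a and Prc1 fell 11.1-fold and 11.3-fold in the aorta, against 16.2-fold and 12.5-fold as fitted.

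These counts rested on few arrays. In the aorta the count was 10 without neonatal aorta 1, 7 without neonatal aorta 2, 5 without neonatal aorta 3, 10 without adult aorta 2 and 16 without adult aorta 3, and it was 43 without adult aorta 1. Mad2l1, Plk1, Smc2, Spc24 and Spc25 were called in the aorta whichever array was left out. In the valve the count was 21 without neonatal valve 1 or neonatal valve 3 and 22 without adult valve 1. With the pair of arrays lacking control RNA signal fitted as a block, the comparison in the aorta rested on neonatal aorta 1 alone, with a median of −2.65 and no member called. The beta-actin ratio also differed by age in the valve without overlap. With its log2 as a covariate, an alternative added after the data were seen, 14 members were called lower in the aorta and 3 in the valve, with medians of −2.37 and −2.23.

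**Figure D2:**
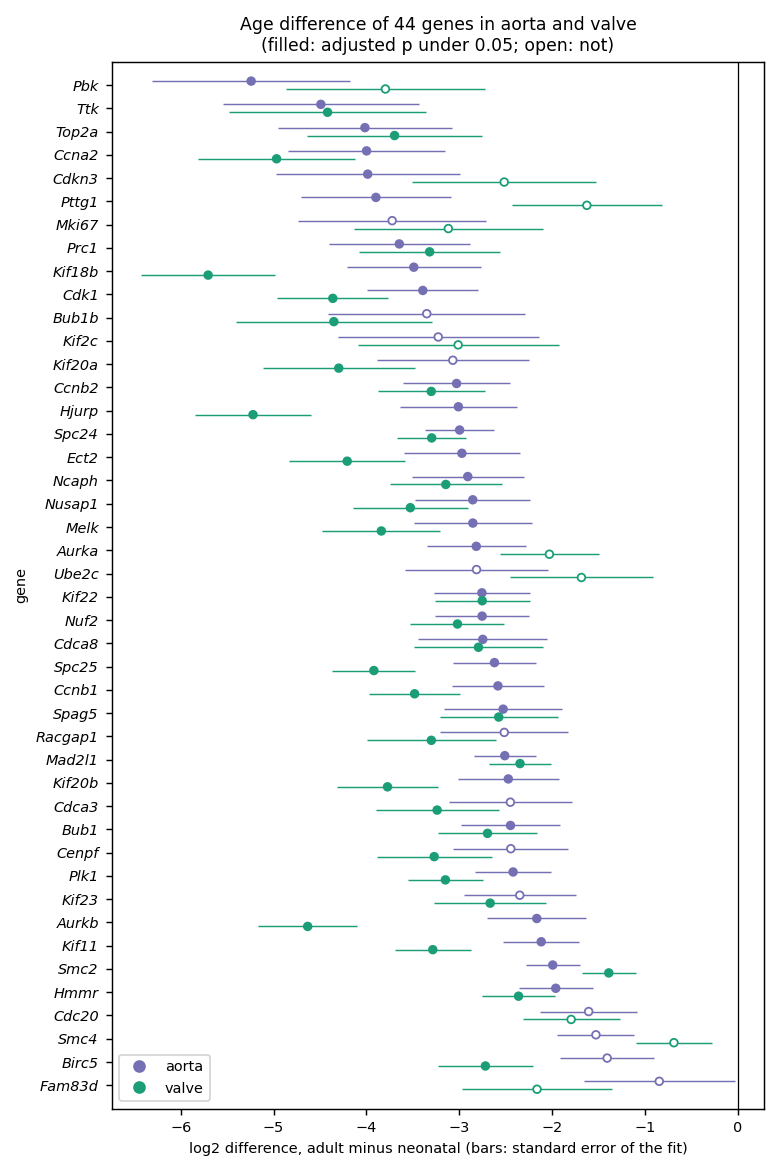
Adult minus neonatal difference in log2 signal (horizontal axis) for each of the 44 genes in aorta (purple) and valve (green), with the standard error of the fit as bars and filled points for adjusted p under 0.05. Every point lies below 0, from −5.24 (Pbk) to −0.85 (Fam83d) in the aorta and from −5.71 (Kif18b) to −0.69 (Smc4) in the valve, and the adult means of Pbk in the aorta and Kif18b in the valve are below the level of absent RNA.

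In what follows a gene is said to fall where it was called lower, and the members not called also had lower adult means. Mitotic entry genes fell in both tissues, 5 of 6 in the aorta and 5 of 6 in the valve. Ccnb2, a B-type cyclin, had signals of 1561, 1659 and 2095 on neonatal aorta arrays and 553, 137 and 132 on adult aorta arrays. On valve arrays they were 1337, 1339 and 1727 at the neonatal and 72.6, 133 and 335 at the adult age. No adult array reached a neonatal one, and the difference was −3.03 ± 0.58 (SE) in the aorta (limma, adjusted p = 0.015) and −3.30 ± 0.58 in the valve (adjusted p = 0.0090). Cdca3, a factor in the destruction of the entry inhibitor Wee1, had 1333, 1421 and 1794 on neonatal and 643, 182 and 178 on adult aorta arrays, and 2010, 1475 and 1548 on neonatal and 61.3, 168 and 531 on adult valve arrays. Its groups did not overlap in either tissue, but adult aorta 1 stood well above the other two adult aorta arrays, and Cdca3 passed the test in the valve (−3.24 ± 0.66, adjusted p = 0.019) and not in the aorta (−2.45 ± 0.66, adjusted p = 0.064). Ccna2, the A-type cyclin of S phase and mitosis, fell in both tissues (limma). Its difference was −4.00 ± 0.85 in the aorta (adjusted p = 0.024) and −4.97 ± 0.85 in the valve (adjusted p = 0.0078). Its adult valve arrays had 15.6, 51.0 and 86.1, of which 2 lie below the level of absent RNA, and the bound is at least 20.1-fold. Cdk1, the mitotic kinase itself, fell 10.5-fold in the aorta and 20.6-fold in the valve (adjusted p = 0.010 and 0.0025). Cdkn3, a phosphatase that acts on cyclin-dependent kinases, fell in the aorta (−3.99 ± 0.99, adjusted p = 0.047). In the valve it had 1238, 1040 and 1009 on neonatal and 57.3, 152 and 796 on adult arrays and did not pass (adjusted p = 0.18).

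Of the 4 genes grouped here as mitotic kinases (Aurka, Plk1, Melk and Pbk), 4 fell in the aorta and 2, Plk1 and Melk, in the valve. The kinase genes Cdk1 and Aurkb are counted under other roles. Melk had 809, 848 and 881 on neonatal and 283, 55.1 and 102 on adult aorta arrays. In the valve its signals were 1707, 1310 and 1238 at the neonatal and 37.4, 104 and 242 at the adult age. The groups were apart in both tissues, with differences of −2.85 ± 0.64 (adjusted p = 0.029) and −3.84 ± 0.64 (adjusted p = 0.0069). Plk1, a kinase of spindle poles, kinetochores and mitotic exit, had 820, 693 and 1104 against 315, 119 and 109 in the aorta and 561, 671 and 664 against 74.7, 99.0 and 48.3 in the valve. Plk1 was 1 of 2 members for which adult valve 3 was the lowest of its group, and it fell 5.35-fold in the aorta and 8.88-fold in the valve (adjusted p = 0.0081 and 0.0019). Pbk, a kinase of dividing cells, fell in the aorta, at −5.24 ± 1.07 (adjusted p = 0.021), with 835, 622 and 718 on neonatal and 159, 14.02 and 3.09 on adult arrays. Since 2 of the adult arrays lie below the level of absent RNA, the fall is given as at least 9.23-fold. Aurka, the kinase of spindle poles, had an adjusted p of 0.014 in the aorta and of 0.052 in the valve.

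All 4 spindle checkpoint genes fell in the valve, and 3 fell in the aorta. Bub1, the kinase that brings checkpoint proteins to kinetochores, had 629, 840 and 920 on neonatal and 212, 63.6 and 221 on adult aorta arrays, and 988, 716 and 1968 on neonatal and 104, 164 and 301 on adult valve arrays. The groups did not overlap, and the differences were −2.45 ± 0.54 (adjusted p = 0.027) and −2.70 ± 0.54 (adjusted p = 0.017). Mad2l1, the gene of the checkpoint inhibitor MAD2, had 463, 447 and 430 against 103, 50.01 and 93.6 in the aorta and 468, 452 and 586 against 70.0, 112 and 120 in the valve. It fell 5.70-fold in the aorta and 5.08-fold in the valve (adjusted p = 0.0021 and 0.0029). Ttk, the kinase MPS1 at the head of the checkpoint, fell in the aorta (−4.49 ± 1.06, adjusted p = 0.037), from 453, 595 and 686 to 135, 2.97 and 40.8. The adult mean of 25.3 and 2 of the 3 adult arrays lie below the level of absent RNA, and the bound is at least 7.73-fold. Ttk was also called in the valve (limma, −4.42 ± 1.06, adjusted p = 0.037), where its adult mean of 49.4 lies below that level (at least 14.6-fold). Bub1b, the gene of the inhibitor BUBR1, fell in the valve (−4.35 ± 1.06, adjusted p = 0.040) and had −3.35 ± 1.06 in the aorta (adjusted p = 0.10). Its adult means, 28.5 in the valve and 47.1 in the aorta, lie below that level, and the bound in the valve is at least 8.09-fold.

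By their brightest probe sets, genes of anaphase onset formed the role with the fewest calls, 1 of 3 in the aorta and none of 3 in the valve. Ube2c, the ubiquitin-conjugating enzyme of the anaphase-promoting complex, had 1502, 1445 and 2306 on neonatal and 492, 154 and 190 on adult aorta arrays. On valve arrays it had 711, 633 and 898 at the neonatal and 114, 92.7 and 1154 at the adult age, so that adult valve 3 exceeded every neonatal valve array. Pttg1, the gene of securin that blocks separase, had 2252, 2300 and 2753 against 618, 110 and 63.0 in the aorta and 708, 887 and 567 against 144, 106 and 794 in the valve. Securin fell in the aorta (−3.90 ± 0.81, adjusted p = 0.022) and had −1.63 ± 0.81 in the valve (adjusted p = 0.29), where adult valve 3 again lay within the neonatal range. Cdc20, the activator of the complex, had −1.61 ± 0.52 in the aorta (adjusted p = 0.11) and −1.80 ± 0.52 in the valve (adjusted p = 0.075), and its groups did not overlap. Another Cdc20 probe set was called in the aorta (limma, −4.31 ± 0.96, adjusted p = 0.029). A different one was called in the valve (−2.47 ± 0.44, adjusted p = 0.0093), with an adult mean of 24.3, below the level of absent RNA (at least 2.47-fold).

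Of the chromosomal passenger complex, which corrects faulty attachments and acts again in cytokinesis, 2 of 3 members fell in the aorta and 3 of 3 in the valve. Aurkb, its kinase, had 898, 906 and 1004 on neonatal and 300, 205 and 147 on adult aorta arrays. On valve arrays it had 738, 2857 and 1060 at the neonatal and 25.2, 64.0 and 90.5 at the adult age, with neonatal valve 2 well above the others. Its differences were −2.17 ± 0.53 (adjusted p = 0.044) and −4.63 ± 0.53 (adjusted p = 0.0010), the second as at least 19.2-fold since its adult mean lies below the level of absent RNA. Cdca8, the gene of borealin, had 466, 401 and 612 against 278, 20.9 and 65.0 in the aorta and 642, 690 and 809 against 72.2, 102 and 147 in the valve, with no overlap in either tissue. It passed narrowly in both, with adjusted p = 0.049 and 0.043. Birc5, the gene of survivin, had the second smallest difference of the set in the aorta, −1.41 ± 0.51 (adjusted p = 0.15), and fell by 2.72 in the valve (adjusted p = 0.013), where its adult mean of 31.6 is below the level of absent RNA and the bound is at least 3.72-fold.

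Of the centromere and kinetochore genes, 4 of 5 fell in the aorta and 5 of 5 in the valve. Nuf2, a subunit of the complex that holds microtubules, had 1079, 990 and 1737 on neonatal and 341, 158 and 112 on adult aorta arrays. On valve arrays it had 1707, 1421 and 1965 at the neonatal and 118, 161 and 473 at the adult age. The groups were apart, and Nuf2 fell 6.75-fold in the aorta and 8.11-fold in the valve (adjusted p = 0.013 and 0.0072). Cenpf, a large protein of the outer kinetochore, had 848, 794 and 1157 against 388, 114 and 109 in the aorta and 1831, 1697 and 2591 against 85.3, 183 and 573 in the valve. Cenpf passed in the valve (−3.27 ± 0.62, adjusted p = 0.014) and just missed in the aorta (−2.45 ± 0.62, adjusted p = 0.050). Spc24 and Spc25, partners of Nuf2, were called in both tissues whichever array was left out, and Spc24 had the smallest adjusted p of the set in the aorta (−2.997 ± 0.37, adjusted p = 0.0014). Hjurp, the loader of the centromeric histone CENP-A, fell in the valve (−5.22 ± 0.63, adjusted p = 0.0013). Its adult valve signals of 10.5, 20.9 and 32.3 were all below the level of absent RNA, and against that level its mean was at least 13.1-fold lower in the adult. Hjurp was also called in the aorta (limma, −3.01 ± 0.63, adjusted p = 0.022), where its adult mean of 51.0 lies below that level (at least 5.38-fold).

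Kinesins, the motors that slide and cap spindle microtubules, were called lower for 4 of 7 genes in the aorta and 6 of 7 in the valve. All 7 were at least 2-fold lower in both tissues. Kif23, a motor of the midzone, had 741, 616 and 947 on neonatal and 477, 87.6 and 78.3 on adult aorta arrays, and 1034, 943 and 1141 on neonatal and 86.6, 188 and 267 on adult valve arrays. Its groups did not overlap, and it passed in the valve (−2.67 ± 0.60, adjusted p = 0.030) and not in the aorta (−2.35 ± 0.60, adjusted p = 0.052). Kif22, a chromosome-arm motor, had 853, 972 and 1153 against 365, 108 and 78.7 in the aorta and 802, 723 and 961 against 71.7, 122 and 207 in the valve. Kif22 fell in both, 6.76-fold in the aorta and 6.74-fold in the valve (adjusted p = 0.014 and 0.012). Kif18b, a regulator of microtubule length, fell in the valve (−5.71 ± 0.72, adjusted p = 0.0017), from 440, 444 and 771 to 5.83, 11.7 and 15.6. All 3 adult signals are below the level of absent RNA, against which the fall is at least 9.74-fold. Kif18b was also called in the aorta (limma, −3.49 ± 0.72, adjusted p = 0.022), where its adult mean of 47.1 lies below that level (at least 6.88-fold). Kif2c, a microtubule depolymerase at centromeres, passed in neither tissue (−3.23 ± 1.08 in the aorta and −3.01 ± 1.08 in the valve), and its adult arrays ran from 9.66 to 157 in the aorta and from 9.08 to 223 in the valve.

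Of the spindle assembly genes, 3 of 4 fell in each tissue. Nusap1, a microtubule-bundling protein, had 1411, 1255 and 2210 on neonatal and 563, 131 and 140 on adult aorta arrays. In the valve these were 1878, 1425 and 1884 at the neonatal and 57.4, 191 and 299.9 at the adult age. The groups were apart in both tissues, with falls of 7.24-fold and 11.5-fold (adjusted p = 0.026 and 0.0091). Spag5, the gene of astrin that helps fix attachments, had 542, 764 and 1020 against 197, 97.2 and 115 in the aorta and 726, 720 and 862 against 62.9, 69.7 and 486 in the valve (adjusted p = 0.049 and 0.042). Fam83d, a spindle protein that anchors a kinase, was the exception of the aorta. It had 291, 324 and 450 on neonatal arrays, and 1127, 66.9 and 97.0 on adult arrays, so that adult aorta 1 was above every neonatal aorta array, and its difference was −0.85 ± 0.81 (adjusted p = 0.62).

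Of the cytokinesis genes, 2 of 3 fell in the aorta and 3 of 3 in the valve. Prc1, which bundles midzone microtubules, had 1548, 1503 and 2344 on neonatal and 574, 39.9 and 121 on adult aorta arrays. On valve arrays it had 2656, 2267 and 2154 at the neonatal and 113, 261 and 441 at the adult age, and it fell 12.5-fold and 9.98-fold (adjusted p = 0.022 and 0.031). Racgap1, the partner of Kif23 in the centralspindlin complex, had 1026, 1130 and 1415 against 699, 129 and 97.6 in the aorta and 1698, 1585 and 2384 against 81.1, 188 and 440 in the valve. It passed in the valve (−3.30 ± 0.69, adjusted p = 0.022) and not in the aorta (−2.52 ± 0.69, adjusted p = 0.068). Ect2, the exchange factor that switches on RhoA at the cleavage plane, fell 7.85-fold in the aorta and 18.5-fold in the valve (adjusted p = 0.023 and 0.0038).

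Chromosome structure genes fell for 3 of 5 members in each tissue. Mki67, the gene of the proliferation antigen Ki-67, had 2408, 2322 and 2730 on neonatal and 854, 64.6 and 120 on adult aorta arrays. On valve arrays it had 2615, 2484 and 5926 at the neonatal and 93.7, 337 and 1861 at the adult age. No adult array overlapped the neonatal ones, yet the adult arrays spread so widely that Mki67 passed in neither tissue (−3.72 ± 1.02, adjusted p = 0.066, and −3.12 ± 1.02, adjusted p = 0.11). Top2a, the topoisomerase that untangles sister chromatids, fell in both tissues (−4.02 ± 0.94, adjusted p = 0.036, and −3.70 ± 0.94, adjusted p = 0.047). The condensin ATPase gene Smc2 had 1016, 936 and 790 against 265, 140 and 321 in the aorta and 1711, 1376 and 1763 against 573, 542 and 741 in the valve. Smc2 thus stayed well above the level of absent RNA in the adult, and it still passed in both tissues (−1.99 ± 0.29, adjusted p = 0.0037, and −1.39 ± 0.29, adjusted p = 0.021). Its partner Smc4 had the smallest difference in the valve (−0.69 ± 0.41, adjusted p = 0.40), from 404, 759 and 1478 to 546, 547 and 362, with overlap, and −1.53 ± 0.41 in the aorta (adjusted p = 0.064). Ncaph, the kleisin subunit of the mitotic condensin complex, fell in both tissues (−2.91 ± 0.60 and −3.15 ± 0.60, adjusted p = 0.022 and 0.014).

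Single arrays stood apart for most of the set, in the adult and in the neonatal aorta. Neonatal aorta 3 was the highest of its group for 37 of the 44 genes, against 36.1% of all probe sets. Adult valve 1 was the lowest of its group for 37. Adult aorta 1 was the highest of the adult aorta arrays for 41 of the 44 genes, against 30.1% of all probe sets, and it was the only adult aorta array on which no gene was at or below the level of absent RNA (12 genes on adult aorta 2 and 9 on adult aorta 3). Adult valve 3 was the highest adult valve array for 40 genes, against 46.2% of all probe sets, and adult valve 1 had 17 genes at or below that level, adult valve 2 had 7 and adult valve 3 had 5. Without adult aorta 1 the median difference of the aorta was −3.41, and without adult valve 3 that of the valve was −3.80. With both left out, an alternative added after the data were seen, 43 genes were called lower in each tissue. Since both arrays held the highest adult signals of most genes, lower adult means follow from this choice. The count therefore adds no support.

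**Figure D3:**
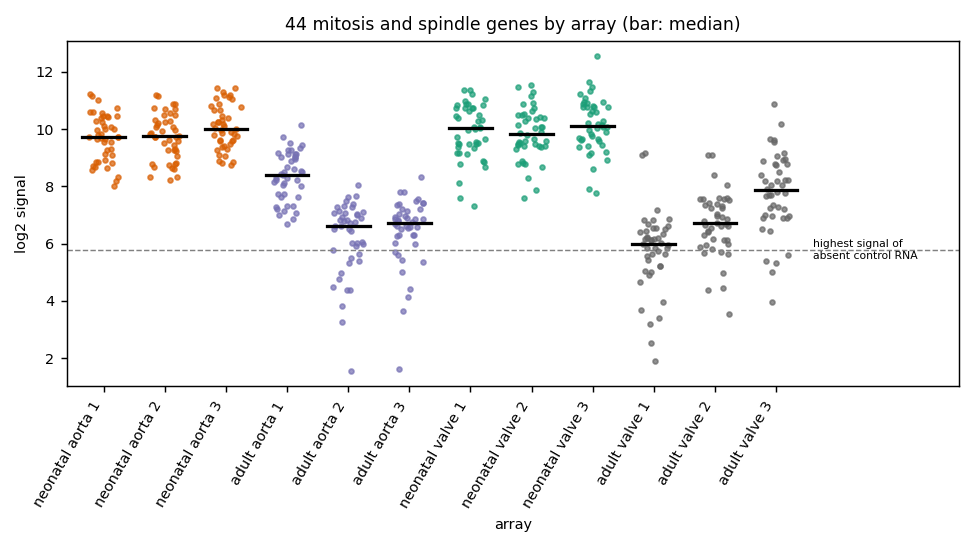
Log2 signal of each of the 44 genes (points, vertical axis) on each array (horizontal axis), with the median as a bar and the highest signal of absent control RNA as a dashed line. Medians of 8.40 on adult aorta 1 and 7.86 on adult valve 3 lie above those of the other adult arrays, 6.0 to 6.72, and below all neonatal medians.

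Markers of other cell types also stood apart on single arrays. On adult aorta 1 the signals of 14 measured squamous epithelium markers of 17 listed summed to 240400, where the remaining adult aorta arrays had 1653 and 1204 and the neonatal ones 2915 to 88800. All 14 were above the level of absent RNA there. The sum of 88800 was that of neonatal aorta 2 and the sum of 2915 that of neonatal aorta 3. Neonatal aorta 2 was the highest of its group for 1 of the 44 genes, against 31.7% of all probe sets, and the lowest for 19. The 10 skeletal muscle markers measured of 11 summed to 203000 on adult aorta 1, where the remaining adult aorta arrays had 13200 and 18700 and the neonatal ones 15360 to 42610. Among the adult aorta arrays Myh1 alone went the other way (5476 against 16030 and 9623). The sum of 42610 was again that of neonatal aorta 2. The 8 smooth muscle markers summed to 30650 on adult aorta 1, against 94100 and 126100 on adult aorta 2 and 3. Of these only Des went the other way (11320 against 2831 and 3919). On adult valve 3 the 8 erythroid markers measured of 10 summed to 71290, against 18780 and 11270. On that array the 8 smooth muscle markers summed to 1775, against 45440 and 27580, and 7 of the 8 were above the level of absent RNA. The 9 endothelial markers measured of 10 summed to 38210 there, against 12670 and 19780. Kdr (530 against 1221 and 1114) and Cldn5 (122 against 418 and 304) went the other way, and the rest of this list was highest there. On neonatal valve 3, which was the highest of its group for 30 members against 37.1% of all probe sets, the 10 thymocyte markers measured of 16 summed to 45760, against 4307 and 1059. Cd1d1 alone went the other way there (281.5 against 376.7 and 390.5). Rag1, Rag2, Ptcra, Dntt, Themis and Ccr9 were not measured with a single symbol. Cardiac muscle markers, 11 measured of 12, summed to 41920 to 68360 on neonatal aorta and 6828 to 31050 on adult aorta arrays, and 5 of the 11 were called lower in the adult, as were 2.80% of all probe sets. On adult aorta 1 most of the sum was Myl3 (29460), with Tnnt2 at 107, Tnni3 at 18.2 and Myh6 at 6.63. On adult aorta 2 and 3 most of it was Pln (5746 and 6059). Neonatal valve arrays had sums of 111100 to 123000, and adult ones of 5537 to 107300. The part of these cells in the members' values was not tested, and without neonatal valve 1 and 3 the count in the valve was 2 (Aurkb and Spc24), with 1 neonatal valve array left.

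**Figure D4:**
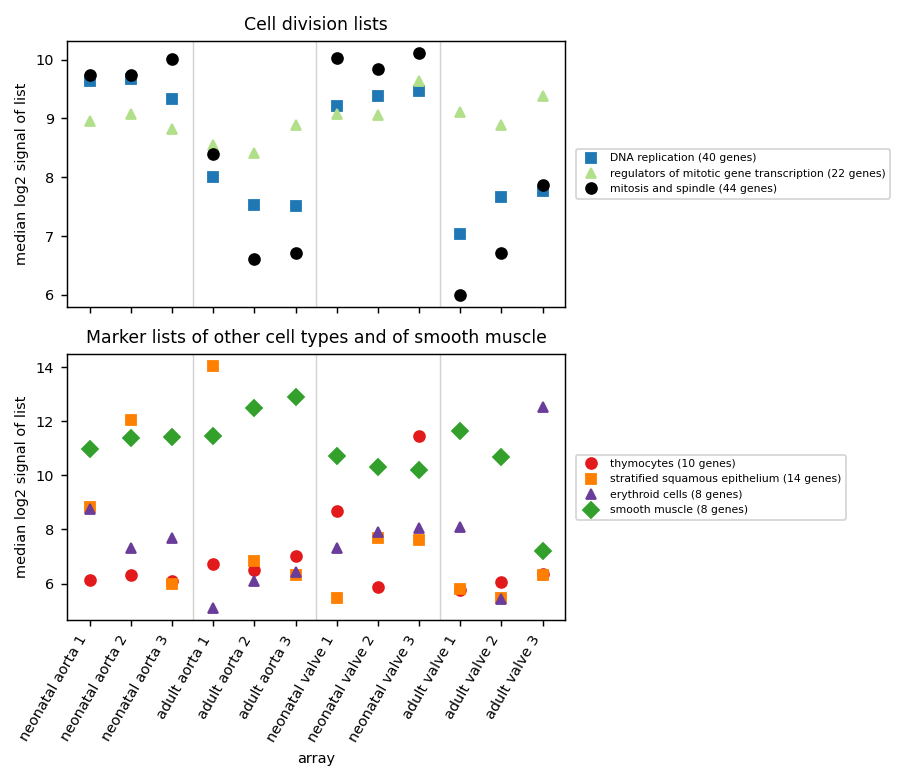
Median log2 signal (vertical axis) per array (horizontal axis) of 3 lists of cell division genes in the upper panel and of 4 marker lists in the lower panel. The mitosis set and the DNA replication list are low on all adult arrays, the regulator list is not, and squamous epithelium, thymocyte, erythroid and smooth muscle markers stand apart on neonatal valve 3, adult aorta 1 and adult valve 3. Squamous epithelium markers are also high on neonatal aorta 2, at a median of 12.04.

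The age differences of the tissues were compared with an interaction term, the difference in the valve minus that in the aorta. None of the 44 members passed, and 2 had an unadjusted p under 0.05, both lower. Of all probe sets, 0.0354% were called. The median was −0.31, against −0.03 over all probe sets, and turned positive without adult aorta 1 (0.09), without adult valve 1 (0.13) or with quantile normalization (0.20). The largest fitted values were −2.47 ± 0.75 for Aurkb (adjusted p = 0.29), 2.27 ± 1.14 for Pttg1 (adjusted p = 0.53), −2.21 ± 1.02 for Kif18b (adjusted p = 0.49) and −2.21 ± 0.89 for Hjurp (adjusted p = 0.42). The values of Kif18b and Hjurp rest on adult means below the level of absent RNA in both tissues and that of Aurkb on such a mean in the valve, so their sizes are not exact. The smallest was that of Kif22, 0.00 ± 0.73, followed by Cdca8 and Spag5 at −0.05 each. The calls made in 1 tissue only, listed above, are therefore not shown to differ between tissues.

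Between the neonatal tissues none of the 44 members was called, whereas 20.7% of all probe sets were called (13.1% lower and 7.63% higher in the valve). At an unadjusted p under 0.05, 2 were lower and 1 was higher in the valve. The median difference, valve minus aorta, was 0.18, against −0.24 over all probe sets, with 30 genes positive and 14 negative. Groups did not overlap for 7 genes lower and 11 higher in the valve, against 30.8% and 18.2% of all probe sets. The largest differences were those of Pttg1 (−1.77 ± 0.81, adjusted p = 0.14), Birc5 (−1.21 ± 0.51, adjusted p = 0.11) and Ube2c (−1.21 ± 0.77, adjusted p = 0.30), all lower in the valve. Next came Cenpf and Ect2, higher in the valve by 1.12 ± 0.62 and 1.09 ± 0.62 (adjusted p = 0.23 and 0.24). The smallest were those of Kif18b (0.01), Aurka (−0.02) and Spag5 (0.03). Without adult aorta 1 and adult valve 3, which changes only the shared estimate of spread here, Cenpf, Ect2, Pttg1, Smc2 and Ube2c were called. Most members were highest of their adult groups on these arrays, and for them a smaller spread follows from the choice. These calls depend on that choice and add no support.

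Between the adult tissues 5 of 44 members were called, where 25.9% of all probe sets were called (15.7% lower and 10.2% higher in the valve). Aurkb (−1.98 ± 0.53, adjusted p = 0.018), Birc5 (−2.52 ± 0.51, adjusted p = 0.0044), Kif11 (−1.21 ± 0.41, adjusted p = 0.048) and Kif18b (−2.21 ± 0.72, adjusted p = 0.042) were lower in the valve. For Kif18b both adult means, 47.1 in aorta and 10.2 in valve, lie below the level of absent RNA and the aorta arrays ran from 12.5 to 128, so that its groups overlap and its size is not exact. Smc2 was higher (1.43 ± 0.29, adjusted p = 0.0046), the only member called against the direction of the other calls. Birc5 had 257, 135 and 172 on adult aorta and 12.9, 58.5 and 41.8 on adult valve arrays, and the groups did not overlap. The valve mean of Birc5 is below the level of absent RNA, and its bound is at least 3.24-fold, as that of Aurkb is at least 3.06-fold. Smc2, with 265, 140 and 321 against 573, 542 and 741, did not overlap either. The median difference was −0.20, against −0.34 over all probe sets, and the adult groups did not overlap for 4 genes lower and 2 higher, against 24.8% and 14.2% of all probe sets. Fam83d had a difference of −2.11 ± 0.81 (adjusted p = 0.075), and the smallest differences were those of Spag5 (−0.02), Ncaph and Ube2c (0.08 and −0.08). Birc5 and Smc2 were called whichever array was left out. The count was 2 without adult valve 1, 3 without any 1 neonatal aorta array or neonatal valve 2, and 9 without adult aorta 1. The median turned positive without adult aorta 1 (0.39), without adult valve 1 (0.44), with quantile normalization (0.36) and with median centring (0.19). The 3′ to 5′ ratio, which separates the valve from the aorta arrays at either age, moves with both comparisons of tissues, and its part was not tested apart from the covariate given in the closing section.

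For 12 genes the values of several probe sets were compared. The sign of the age difference was shared by all probe sets in the aorta, and in the valve by all but those of Cdc20, which ran from −2.47 to 0.29. The Cdc20 probe set at 0.29 was below the level of absent RNA on all 6 valve arrays, so that it has no direction. Probe sets of 1 gene differed in call for Mad2l1, Ttk, Cdc20, Nusap1 and Top2a in the aorta, and for Ttk, Cdc20, Kif23, Kif2c, Nusap1 and Racgap1 in the valve. Kif2c, for one, was not called in the valve by its brighter probe set and was called by the other (−4.50 ± 0.60, adjusted p = 0.0021), whose adult valve signals were all below that level (at least 3.59-fold). Between neonatal tissues the sign differed for 10 of 12 genes: Ccnb1, Mad2l1, Ttk, Cdc20, Kif23, Kif2c, Nusap1, Hmmr, Racgap1 and Smc4. Kif23 had 0.45 ± 0.60 by 1 probe set and −3.17 ± 0.89 by the other, which was called (adjusted p = 0.025) with 221, 336 and 425 on neonatal aorta and 32.3, 41.8 and 31.8 on neonatal valve arrays. The valve signals are below the level of absent RNA, and the bound is at least 5.79-fold. Between adult tissues it differed for 7 genes: Mad2l1, Ttk, Cdc20, Kif23, Kif2c, Top2a and Smc4. Kif2c had 0.37 ± 1.08 by its brighter probe set and −3.24 ± 0.60 by the other (adjusted p = 0.0027, with a valve mean of 8.67, below that level), and the second probe set of Kif11 was not called (−2.29 ± 0.81, adjusted p = 0.056). In the interaction the sign differed for 10 genes. Beside these tissue differences stands the 3′ to 5′ ratio of beta-actin, which was 1.40 to 2.59 on aorta and 7.24 to 13.99 on valve arrays, and its part was not tested. No gene had probe sets called in opposite directions in any comparison.

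**Figure D5:**
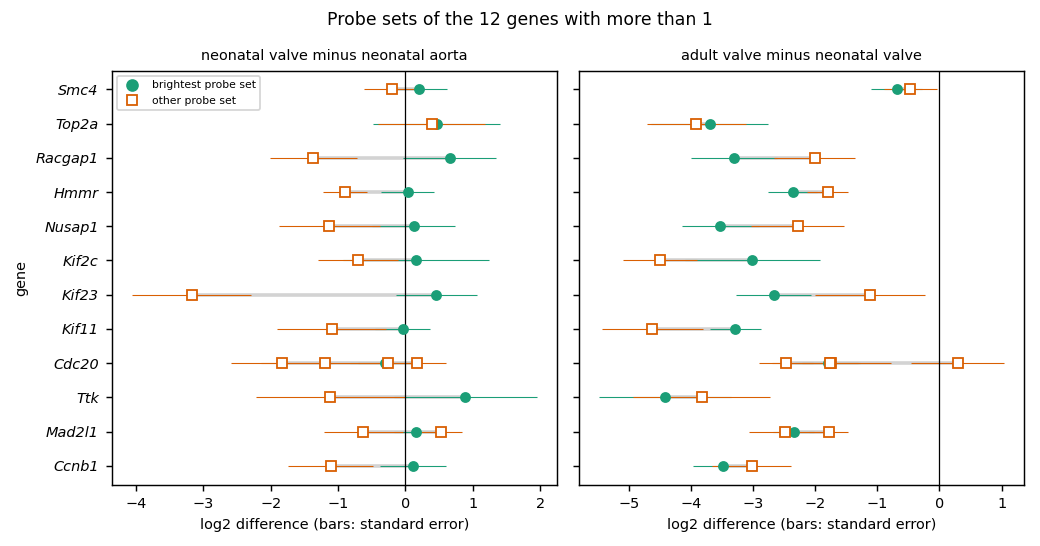
Log2 difference (horizontal axis, bars for the standard error of the fit) of every probe set of the 12 genes with more than 1, between neonatal tissues (left) and between ages in the valve (right). On the left 10 genes have probe sets on both sides of 0, and on the right 1 gene does, Cdc20, whose positive probe set is below the level of absent RNA on all 6 valve arrays.

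Further genes of cell division were taken from lists that share no gene with the set. Of 88 other mitosis genes measured (105 listed), 36 were called lower and none higher in adult aorta, with a median of −1.35, and 39 lower and none higher in adult valve, with a median of −1.66. Over all probe sets 2.80% were called lower and 1.19% higher in the aorta, and 2.57% and 1.98% in the valve. In the aorta the smallest adjusted p belonged to Cenpe, a kinetochore motor (−4.86 ± 0.49, adjusted p = 0.00048), Cks1b, a small subunit of cyclin-dependent kinases (−1.86 ± 0.19, adjusted p = 0.00052), and Shcbp1 (−4.11 ± 0.47, adjusted p = 0.00088). In the valve it belonged to Cenpe (−4.59 ± 0.49, adjusted p = 0.00075), Cit, a kinase of cytokinesis (−2.91, adjusted p = 0.0010), and Cks1b (−1.65 ± 0.19, adjusted p = 0.0012). Cenpe means in the adult, 8.25 in aorta and 7.01 in valve, are below the level of absent RNA. Between tissues 5 of the 88 were lower and 6 higher in neonatal valve, and 9 lower and 10 higher in adult valve. The shares over all probe sets were 13.1% lower and 7.63% higher in neonatal valve, and 15.7% and 10.2% in adult valve.

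Of 40 DNA replication genes measured (44 listed), 27 were called lower and none higher in each tissue, with medians of −1.80 in the aorta and −1.66 in the valve. The share of all probe sets called lower was 2.80% in the aorta and 2.57% in the valve. The median fall of the mitosis set was larger, at −2.79 and −3.25, but these lists were not tested against each other. Beside the cyclin gene Ccne2 and the helicase gene Mcm6, the smallest adjusted p in the aorta was that of Rrm1, a ribonucleotide reductase subunit (−1.92 ± 0.22, adjusted p = 0.00075). In the valve it was that of Cdt1, a licensing factor (−3.62 ± 0.42, adjusted p = 0.0011).

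The regulators of these genes moved less uniformly. Of 22 measured (25 listed), 6 were lower and 1 higher in adult aorta, and 6 lower and 2 higher in adult valve, with medians of −0.58 and −0.12. All probe sets had shares of 2.80% lower and 1.19% higher in the aorta, and 2.57% and 1.98% in the valve. E2f1, E2f7 and E2f8, genes of transcription factors, were called lower in both tissues: E2f1 (−1.58 in aorta and −1.83 in valve, adjusted p = 0.015 and 0.0065), E2f7 (−2.32 and −2.60, adjusted p = 0.023 and 0.013) and E2f8 (−2.04 and −3.53, adjusted p = 0.023 and 0.0014). Foxm1, an activator of mitotic genes, fell in the aorta (−3.16 ± 0.64, adjusted p = 0.021) and had −1.76 ± 0.64 in the valve (adjusted p = 0.15). Mybl2, its partner at MuvB, fell in the valve (−1.72 ± 0.40, adjusted p = 0.034) and had −0.56 ± 0.40 in the aorta (adjusted p = 0.49). Rbl1, the pocket protein p107, fell in both tissues (−2.54 and −2.05, adjusted p = 0.011 and 0.027). The genes called higher in the adult were pocket protein and DREAM genes. Rb1, the retinoblastoma gene, rose in the aorta by 1.53 ± 0.34 (adjusted p = 0.028), with a difference of 0.44 ± 0.34 in the valve (adjusted p = 0.53). Rbl2, the pocket protein p130 of resting cells, rose in the valve by 1.25 ± 0.31 (adjusted p = 0.041), with 0.54 ± 0.31 in the aorta (adjusted p = 0.37). Lin52, a MuvB subunit, rose in the valve by 1.28 ± 0.31 (adjusted p = 0.037), with 0.27 ± 0.31 in the aorta (adjusted p = 0.69).

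Of the factors that bind the promoter letters shown above, given for that reason and not by the rule, Lin54, the MuvB subunit that contacts TTTGAA, fell in the aorta by 0.80 (adjusted p = 0.045) and had −0.39 ± 0.20 in the valve (adjusted p = 0.31). The NF-Y subunit genes Nfya, Nfyb and Nfyc had differences of −0.74, 0.02 and 0.02 in the aorta and of −0.05, 0.08 and −0.18 in the valve, and none passed (adjusted p = 0.16 to 0.98). None of the interaction terms in these 3 lists passed.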

How the data were processed

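The authors deposited intensity values, that is linear signals per probe set, which came from Affymetrix Expression Console with MAS5, per the submitters' processing notes. Versions and the scaling target are not stated there. Every array has the same mean of 500.1 to 500.2 once 2% is trimmed at each end. Total RNA was isolated by Trizol followed by RNeasy columns and was labelled with biotin, per the labels' protocols.

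Of 31099 probe sets, 57 controls were left out. Signals below 1 were set at 1, and log2 was taken. In R 4.3.3, limma 3.58.1 (lmFit, then eBayes with a trend on mean signal) was run on the 12 arrays with 4 group means and 8 residual degrees of freedom, with no filter on low values. P-values were adjusted by Benjamini-Hochberg over 31042 probe sets. The ± values are the standard errors of limma, which was tested on simulated data first. Gene names came from the array's annotation (20826 probe sets with 1 symbol, 436 with several, 9780 with none).

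The members and lists were chosen with earlier results of these data known. In each role the 2 members with the highest mean were given on every array. Also named were the 3 largest and 3 smallest differences of each comparison, members called against the majority, members without a probe set, genes whose probe sets disagreed, and from each list the 3 smallest adjusted p by age and genes called higher in the adult. Further members and regulators were named after their values were seen. Replicate numbers did not pair the arrays.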

Additional observations from a re-analysis of the deposited data

How the results depend on the processing

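Precision was limited by 3 arrays per group and, in the adult, by signals near the level of absent RNA. Leaving out 1 array at a time gave 5 to 43 members called by limma in the aorta by age (31 with all arrays) with medians of −3.41 to −2.43, and 21 to 40 in the valve by age (34) with medians of −3.80 to −2.66. It gave 0 to 1 between neonatal tissues (0) with medians of 0.09 to 0.32, 2 to 9 between adult tissues (5) with medians of −0.82 to 0.44, and none in the interaction, with medians of −0.90 to 0.13. No paired design applied, since same-numbered arrays correlated at −0.31 to 0.24, and with the replicate number as a block 24, 30, 0, 3 and 0 members were called in these 5 comparisons. The count between neonatal tissues was 2 with log2 of signal plus 32 and 1 with median centring, where the median was 0.51. The count between adult tissues was 3 with log2 of signal plus 32, with quantile normalization, with no intensity trend or with the control RNA block. The last gave 0 in the aorta by age. Without neonatal valve 1 and 3 the count was 15 in the aorta and 2 in the valve by age, from fewer arrays. With the filter on low values, quantile normalization, median centring, no intensity trend or the mean of a gene's probe sets, the counts by age ran from 22 to 39 in the aorta and from 26 to 35 in the valve. The alternatives added after the data were seen gave, without adult aorta 1 and adult valve 3, 5 members between neonatal and 8 between adult tissues. With the actin ratio as covariate they gave 14 and 3 by age and 0 between adult tissues, with medians of −2.23 in the valve by age, 3.83 between neonatal and 3.98 between adult tissues. There Aurkb (1.28), Birc5 (0.40), Kif11 (1.75), Kif18b (6.24) and Smc2 (−0.18) turned sign. This ratio separates the tissues, so that the fit extrapolates, and the cause was not tested otherwise.

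With groups by the tissue entry, adult aorta and neonatal valve arrays change places by construction. Counts were then 0 in the aorta by age, 5 in the valve by age, 31 between neonatal and 34 between adult tissues, with medians of 0.18, −0.20, −2.79 and −3.25. In the aorta by age the differences turned positive for Ccnb1 (0.11), Melk (0.73), Pbk (0.39), Bub1 (0.51), Mad2l1 (0.16), Ttk (0.89), Aurkb (0.48), Cdca8 (0.55), Nuf2 (0.45), Spc25 (0.26), Hjurp (0.80), Kif18b (0.0069), Kif20b (0.74), Nusap1 (0.12), Spag5 (0.0317), Hmmr (0.0342), Prc1 (0.42), Ect2 (1.09), Top2a (0.46), Smc2 (0.82) and Ncaph (0.31). In the valve by age they did for Bub1 (0.26), Mad2l1 (0.32), Ttk (0.96), Cdca8 (0.50), Nuf2 (0.19), Cenpf (0.30), Kif23 (0.14), Prc1 (0.74), Top2a (0.78), Smc2 (1.43) and Ncaph (0.0755). Between adult tissues Smc2 turned to −1.39.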
